A study of Homo sapiens with 54 samples.

Results

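The data described here are the mRNA levels of 9 genes of nonsense-mediated decay (NMD), *UPF1*, *UPF2*, *UPF3A*, *UPF3B*, *SMG1*, *SMG5*, *SMG6*, *SMG8* and *SMG9*. They were chosen by name, with earlier results of these data known, from 55906 gene rows in each of 4 expression tables. All 9 passed the filter on low values in every cell line, where between 16293 (NCI-H23) and 19303 (LN319) genes were tested. The study asked how cells respond to loss of the splicing factor paralogs *TRA2A* and *TRA2B*, singly and together. A549 and NCI-H23, established lung cancer cell lines, stably carried Zim3-dCas9, a Cas9 without nuclease activity fused to a repressor domain that silences the promoter a guide directs it to (CRISPRi). They received control guides (Control KD), guides to *TRA2A* (*TRA2A* KD), to *TRA2B* (*TRA2B* KD) or to both (*TRA2A/B* DKD), and were collected on day 5 after transduction. LN229 and LN319, established glioma cell lines, received a vector with nuclease-active Cas9 and guides, and were collected on day 7. They overexpressed luciferase (Luc Control KO, Luc *TRA2A* KO and Luc *TRA2B* KO) or a *TRA2B* cDNA (TRA2B-OE Control KO and TRA2B-OE *TRA2A* KO). Each of the 18 conditions had 3 replicate libraries, 54 in all. The labels do not say whether replicates were separate cultures, so p-values measure the spread between libraries, which may be technical.

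NMD destroys mRNAs on which translation ends too early, and also some normal transcripts. UPF1, an RNA helicase, is recruited to the terminating ribosome, and UPF2 together with UPF3A or UPF3B links it to exon junction complexes left downstream by splicing. The kinase SMG1, held in check by SMG8 and SMG9, phosphorylates UPF1, which then recruits the endonuclease SMG6 and the adaptor SMG5. Several of these mRNAs are themselves NMD substrates, and cells are known to raise them when the pathway is weakened.

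TRA2 proteins bind RNA rich in AGAA, so the coding sequences of the 9 genes were searched for these 4 letters on the transcribed strand. Copies may overlap. The canonical coding sequence of *UPF3B* held 58 copies, or 40 per kb, the 7th highest density of 19263 protein-coding genes with at least 300 coding bases. *UPF3A* followed with 43 copies, 30.1 per kb and rank 57, and *UPF2* with 85 copies, 22.3 per kb and rank 408. The other 6 genes had between 4.92 (*SMG5*) and 10 (*SMG1*) per kb, around the median of 7.52 over all genes. In both UPF3 genes the internal coding exon of highest density was exon 7, and both sequences are shown because these paralogs carried the opposite changes described below. They come from the GRCh38 reference with Gencode v44 exon numbers, and capitals mark AGAA, with overlapping copies run together.
UPF3A exon 7 of 10, chr13:114291634-114291792, plus strand: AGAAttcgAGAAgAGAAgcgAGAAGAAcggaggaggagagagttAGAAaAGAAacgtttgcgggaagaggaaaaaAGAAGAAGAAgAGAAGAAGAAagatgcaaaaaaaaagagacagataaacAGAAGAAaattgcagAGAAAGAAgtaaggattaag
UPF3B exon 7 of 11, chrX:119841076-119841258, minus strand: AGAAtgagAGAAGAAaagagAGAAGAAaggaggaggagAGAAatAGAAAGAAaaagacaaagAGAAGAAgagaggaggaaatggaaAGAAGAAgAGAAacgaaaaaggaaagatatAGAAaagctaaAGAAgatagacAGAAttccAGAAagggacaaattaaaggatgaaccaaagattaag
Each exon held 17 copies, and 0 on the opposite strand. Of internal coding exons within 10% of the same length, 0.00396% of 25228 held at least as many as the *UPF3A* exon and 0.0149% of 20122 at least as many as the *UPF3B* exon, while 67.2% and 70.6% held at least 1 copy. Each exon was picked as the densest of its gene and is itself in its comparison set, and the *UPF3A* share is that exon alone. The low shares thus follow in part from that choice and are a description only. A match is a run of letters and not a shown binding site, and exon use cannot be read from gene-level values.

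In the knockdown lines the targeted mRNAs stood at 6.54 to 25.2% of Control KD, in both single and double knockdowns. In the knockout lines, where edited genes may still be transcribed, they stood at 33.2 to 66.0% of Luc Control KO, and *TRA2B* at 374% (LN229) and 873% (LN319) in TRA2B-OE Control KO. In LN229 TRA2B-OE *TRA2A* KO, *TRA2A* was at 87.2% of its control. Deposited values overlapped and scaled values did not, and the difference was not called (limma, adjusted p = 0.0793). That control, TRA2B-OE Control KO, itself stood at 73.4% of Luc Control KO, so these libraries show no clear further loss of the mRNA. A549 Control KD replicate 3 stood apart, with a median correlation of 0.837 with the other A549 libraries against up to 0.927. It held 60.7 TPM of *SMG6* and 11.3 TPM of *UPF3B*, and results that rest on it are given with and without it. The lung lines had high *KRT8* and *KRT18* (medians of 725 to 2733 TPM), but *SFTPB* was near 0 in both and *NKX2-1* at most 1.06 TPM. LN319 had the glioma marker *SOX2* at a median of 361 TPM (64.7 in LN229), with *OLIG2* at no more than 0.140 TPM. *VIM* was at 3130 TPM there, but also at 1025 in A549 and 1593 in NCI-H23. Other glial markers were low in LN319, with *NES* at 7.13 TPM (256 in LN229), *S100B* at 0.549 (255 in LN229), *GFAP* at 1.83 and *AQP4* at 2.70. Of epithelial markers LN319 had 123 TPM of *CDH1*, against 0.192 in LN229, 15.7 in A549 and 1.65 in NCI-H23. It also had 117 TPM of *KRT8*, 94.1 of *KRT18* and 10.6 of *NKX2-1*, but 0.422 of *EPCAM*. In LN319, *CDH1* was between 116 and 150 TPM in all 15 libraries.

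Levels are in TPM, the abundance of a transcript relative to the whole library after adjustment for transcript length, so different genes can be set side by side within a library. They are shares of a library and keep no record of read depth. A lower share and less RNA of that gene per cell therefore cannot be told apart. *SMG5* was the most abundant factor in the controls of 3 lines, with 131 ± 7.94 TPM in LN319, 124 ± 4.39 in NCI-H23 and 103 ± 3.85 in LN229 (SD, n = 3). In A549 it was *SMG9*, with 73.2 ± 13.2 TPM, followed by *SMG5* with 50.2 ± 3.76. *SMG8*, an inhibitory subunit of the SMG1 kinase complex, was lowest in A549 (15.3 ± 1.10), NCI-H23 (13.9 ± 0.929) and LN319 (20.4 ± 0.848), and *UPF2* was lowest in LN229 (14.1 ± 2.05). *SMG8* overlapped its neighbour in the order in each of those 3 lines, and in LN319 *SMG5* overlapped *SMG9* (123 ± 11.6). In the A549 controls 7 of the 8 neighbouring pairs overlapped, with replicate 3 high for *UPF1*, *UPF2*, *SMG1* and *SMG6*. Of the UPF3 paralogs, *UPF3A* was higher than *UPF3B* in all 4 controls, at 45.7 ± 5.17 against 17.1 ± 5.11 TPM in A549, 48.1 ± 1.73 against 34.1 ± 0.962 in NCI-H23, 103 ± 5.41 against 30.0 ± 1.32 in LN319 and 63.0 ± 0.787 against 23.8 ± 3.50 in LN229.

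**Figure D1:**
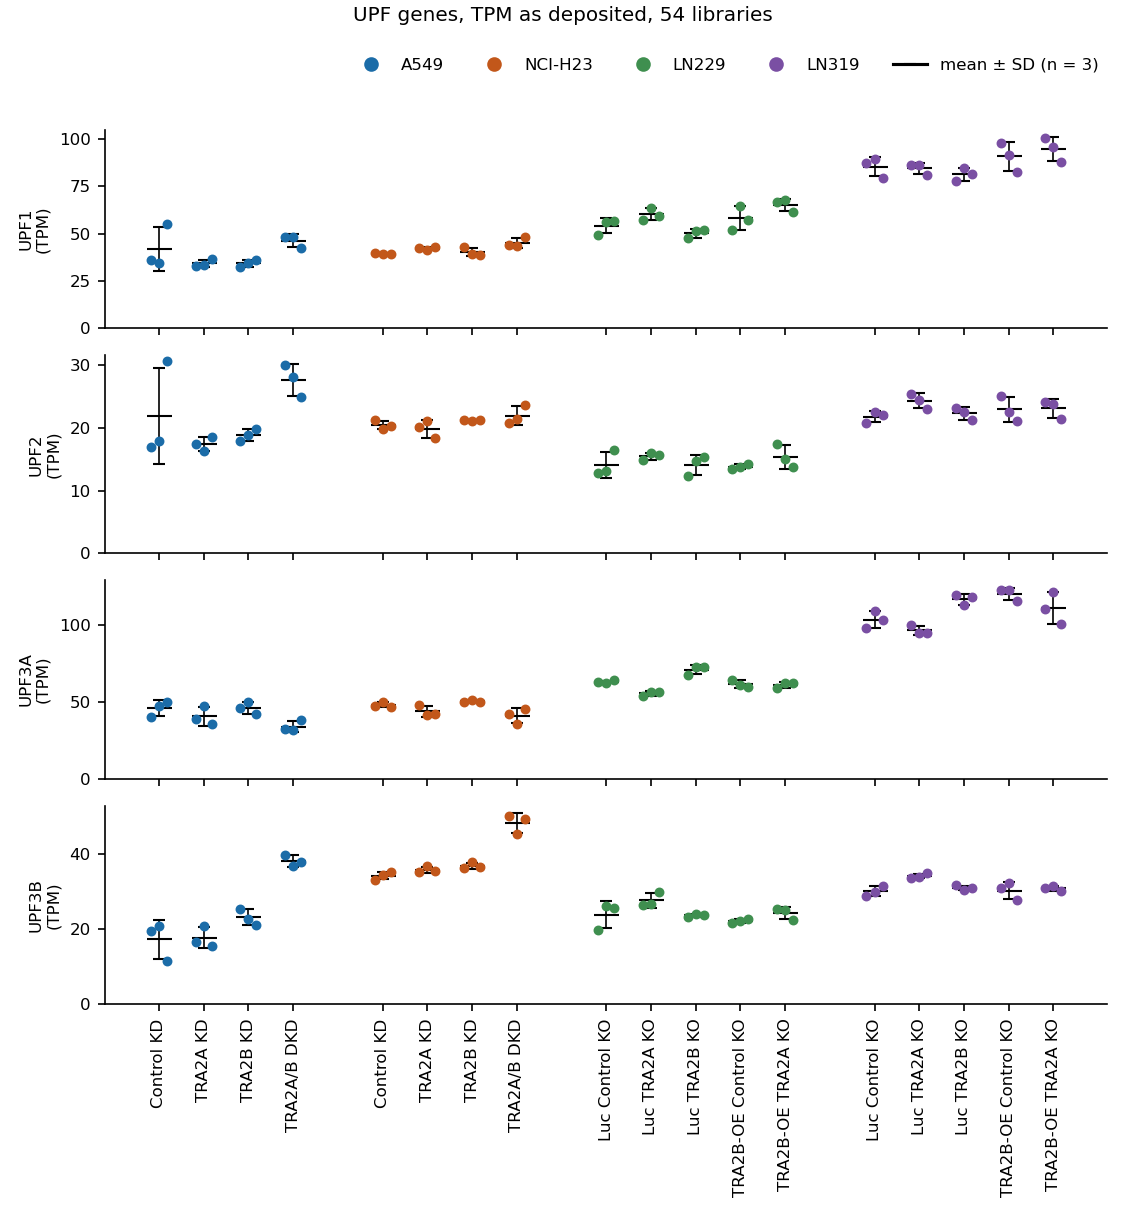
TPM as deposited (y axis, linear from 0) of the 4 UPF genes in all 54 libraries, grouped by condition and coloured by cell line; points are libraries and black marks the mean ± SD of 3. *UPF3B* libraries of both double knockdowns (36.6 to 50.1 TPM) lie above every other library of their line, and A549 Control KD replicate 3 lies apart for *UPF1*, *UPF2* and *UPF3B*.

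After the double knockdown, the same 3 decay factors passed the test in A549 and in NCI-H23, in the same directions. *UPF3B* and *SMG5* rose and *UPF3A* fell, while *UPF1*, *UPF2*, *SMG1*, *SMG6*, *SMG8* and *SMG9* did not pass. The test was limma on scaled log2(TPM + 0.1) with Benjamini-Hochberg adjustment over all genes of a comparison, and a call needed an adjusted p under 0.05. The 3 of 9 called stand beside 30.6% of all genes called in A549 and 43.2% in NCI-H23, so the share of decay factors called was near the background. Medians over the 9 were 0.24 (log2) in A549 and 0.04 in NCI-H23, beside 0.03 and 0.02 over all genes. On TPM as deposited, all 3 double-knockdown libraries were above every control library for 3 of the 9 in A549 (23.8% of all genes) and 4 in NCI-H23 (33.1%), and below for 1 in each (17.7 and 19.0%).

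*UPF3B*, the X-linked UPF3 paralog and a direct partner of the exon junction complex, showed the largest change of the 9 in A549. In A549 it was at 39.7, 36.6 and 37.7 TPM in the *TRA2A/B* DKD libraries and at 19.5, 20.7 and 11.3 TPM in Control KD. The groups did not overlap, and the lowest control was replicate 3. The log2 fold change was 1.11 (SE 0.247), or 2.16-fold, with an adjusted p of 0.00637 (limma), and without that control library it was 0.77 (adjusted p = 0.000317). In NCI-H23 the level was 50.1, 45.1 and 49.1 TPM after double knockdown against 33.1, 34.3 and 35.0 TPM. Again all 3 were above every control, with a log2 fold change of 0.34 (SE 0.0589, adjusted p = 0.0009, limma), or 1.26-fold.

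*UPF3A*, the paralog that is the weaker activator of NMD in most assays, moved the other way. In A549 it was at 32.2, 31.3 and 37.9 TPM after double knockdown and at 39.9, 47.4 and 49.9 TPM in Control KD. In NCI-H23 it was at 42.3, 35.5 and 45.1 TPM against 47.5, 50.05 and 46.8 TPM. All double-knockdown libraries lay below every control, though in NCI-H23 the nearest libraries, at 45.1 and 46.8 TPM, lay close together. The log2 fold changes were -0.51 (SE 0.113, adjusted p = 0.00603) in A549 and -0.39 (SE 0.0722, adjusted p = 0.00126) in NCI-H23, by limma. On TPM as deposited the NCI-H23 value was -0.24 and missed the threshold (adjusted p = 0.0551), while the median over all genes moved to 0.17. Of the 31-base words of the *UPF3A* transcript, which kallisto matches reads by, 50.1% also occur in other genes, mainly its pseudogene *UPF3AP2*, but 0 occur in *UPF3B*. The pseudogene was listed at no more than 0.0889 TPM on average in the control and double-knockdown groups of both lines.

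Within a library, the ratio of *UPF3A* to *UPF3B* needs no scaling between libraries. In A549 Control KD it was 2.04, 2.29 and 4.39, and in *TRA2A/B* DKD 0.811, 0.857 and 1.00. In NCI-H23 it was 1.43, 1.46 and 1.34 in Control KD and 0.844, 0.788 and 0.919 in *TRA2A/B* DKD. The control libraries of both lines held more *UPF3A* than *UPF3B*, and after double knockdown both lines had mean ratios below 1, at 0.891 ± 0.101 and 0.850 ± 0.0658 (SD, n = 3). The mean log2 ratio differed by -1.63 in A549 and by -0.73 in NCI-H23, each with a two-sided exact permutation p of 0.1, which is the smallest that 3 against 3 libraries allow. Without A549 Control KD replicate 3 the A549 difference was -1.29.

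**Figure D2:**
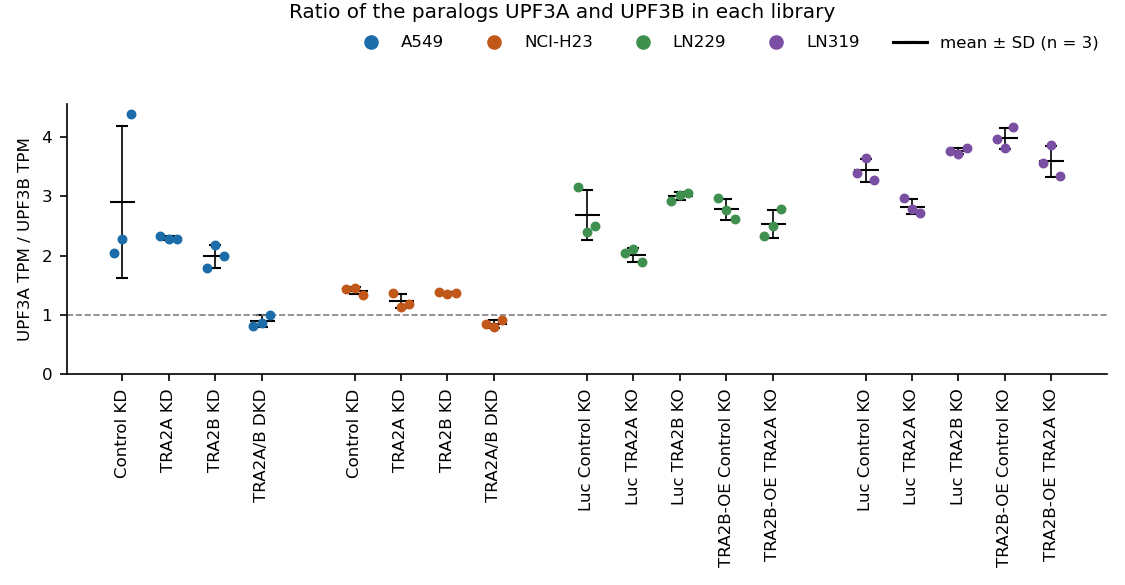
Ratio of *UPF3A* to *UPF3B* TPM (y axis, linear from 0, pseudocount 0.1) in each of 54 libraries by condition; points are libraries, black marks the mean ± SD of 3 and the dashed line is equal levels. The 6 double-knockdown libraries lie between 0.788 and 1.00 and below all other libraries.

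*UPF1*, the helicase at the centre of the pathway, was at 48.3, 48.2 and 42.4 TPM after double knockdown in A549 and at 36.2, 34.2 and 55.1 TPM in Control KD. These overlapped because of control replicate 3. The log2 fold change was 0.10, with a 95% interval from -0.17 to 0.37 (adjusted p = 0.587, limma), and 0.24 without that library (adjusted p = 0.0917). The NCI-H23 value was 0.04, from -0.09 to 0.17 (adjusted p = 0.647). *UPF1* passed with length and GC trends removed in both lines (0.38, adjusted p = 0.00169 in A549, and 0.25, adjusted p = 0.0037 in NCI-H23), and in NCI-H23 also on TPM as deposited (0.19, adjusted p = 0.0315). *UPF2*, which bridges UPF1 and UPF3, was at 30.1, 28.2 and 24.9 TPM in A549 against 17.0, 17.95 and 30.7 TPM. Its log2 fold change of 0.31 did not pass (adjusted p = 0.154), but it was 0.51 without control replicate 3 (adjusted p = 0.00683) and 0.39 with the trends removed (adjusted p = 0.00604). In NCI-H23 *UPF2* differed by -0.06, from -0.24 to 0.13 (adjusted p = 0.616).

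*SMG5*, the adaptor that recruits deadenylation and decapping enzymes to phosphorylated UPF1, was at 75.8, 73.7 and 72.5 TPM after double knockdown in A549 and at 54.3, 49.1 and 47.05 TPM in Control KD. In NCI-H23 it was at 164, 179 and 182 TPM against 119, 127 and 125 TPM. Both lines thus showed 3 libraries above every control, and the deposited means were 148 and 141% of control. The log2 fold changes were 0.48 (SE 0.128, adjusted p = 0.0155) in A549 and 0.34 (SE 0.0608, adjusted p = 0.00106) in NCI-H23 by limma. None of the 31-base words of *SMG5* occur in another gene.

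*SMG6*, the endonuclease that cuts NMD targets, had the lowest fold change of the 9 in A549, at -0.70, but did not pass (adjusted p = 0.073, limma). Its 3 controls were at 27.5, 21.2 and 60.7 TPM, and the double knockdown at 20.4, 26.4 and 17.98 TPM. Control replicate 3 lay far above all others, and without it the value was -0.33 (adjusted p = 0.203), whereas without control replicate 2 it was -0.98 and passed (adjusted p = 0.0141). In NCI-H23 it was at 17.9, 17.5 and 17.9 TPM against 20.8, 14.1 and 17.0 TPM, a difference of -0.10 (adjusted p = 0.626). The *SMG6* transcript shares 29.5% of its 31-base words with *HIC1*, a gene that overlaps it.

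*SMG1*, the kinase that phosphorylates UPF1, was at 54.5, 49.8 and 45.0 TPM after double knockdown in A549 and at 31.9, 31.9 and 61.4 TPM in Control KD. The groups overlapped through control replicate 3 alone, and the log2 fold change of 0.24 (adjusted p = 0.312, limma) became 0.49 without it (adjusted p = 0.00773) and 0.40 with length and GC trends removed (adjusted p = 0.00168). In NCI-H23 it was at 42.2, 44.5 and 48.9 TPM against 43.2, 32.8 and 35.2 TPM, a difference of 0.14 (adjusted p = 0.431). *SMG1* has partial copies on the same chromosome, and 20.6% of its 31-base words occur in 7 *SMG1P* genes, so reads could be assigned to either. Of those, *SMG1P2* and *SMG1P3* were called higher in both lines. *SMG1P2* rose by 1.58 on the log2 scale in A549 (adjusted p = 0.00113) and 0.38 in NCI-H23 (adjusted p = 0.0447). *SMG1P3*, the more abundant, rose from 18.7 ± 8.07 to 40.8 ± 5.48 TPM in A549 (log2 fold change 1.12, adjusted p = 0.00123) and from 26.9 ± 1.83 to 47.9 ± 3.41 TPM in NCI-H23 (0.68, adjusted p = 1.8e-05). *SMG1P5*, which shares the most words with *SMG1*, was called higher in A549 (0.94, adjusted p = 0.00358, limma) but not in NCI-H23 (0.28, adjusted p = 0.102). *SMG1P1* was called higher in NCI-H23 (0.76, adjusted p = 0.0038) but not in A549 (0.85, adjusted p = 0.065). *SMG1* values are uncertain because reads could be assigned to these copies.

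*SMG8* and *SMG9*, whose proteins hold SMG1 inactive, passed in neither line as scaled, but some alternatives called them. *SMG8* was at 18.1, 18.7 and 18.7 TPM after double knockdown in A549 against 16.1, 15.8 and 14.03 TPM, and at 17.0, 17.8 and 17.0 TPM in NCI-H23 against 13.1, 14.9 and 13.6 TPM. The deposited values did not overlap in either line, but the scaled differences of 0.19 and 0.16 did not pass (adjusted p = 0.322 and 0.128, limma). The A549 value was 0.06 without control replicate 3 (adjusted p = 0.667), whereas NCI-H23 passed on TPM as deposited (0.31, adjusted p = 0.00874) and with a minimum of 5 TPM (0.22, adjusted p = 0.0407). *SMG9* was at 86.3, 96.4 and 88.9 TPM in A549 against 68.0, 63.4 and 88.2 TPM, a log2 fold change of 0.24 (adjusted p = 0.141). It passed with quantile normalization (0.37, adjusted p = 0.0373) and with length and GC trends removed (0.48, adjusted p = 0.00621). In NCI-H23 it was at 43.0, 38.1 and 39.2 TPM against 34.5, 43.2 and 37.3 TPM, a difference of -0.09 (adjusted p = 0.352).

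**Figure D3:**
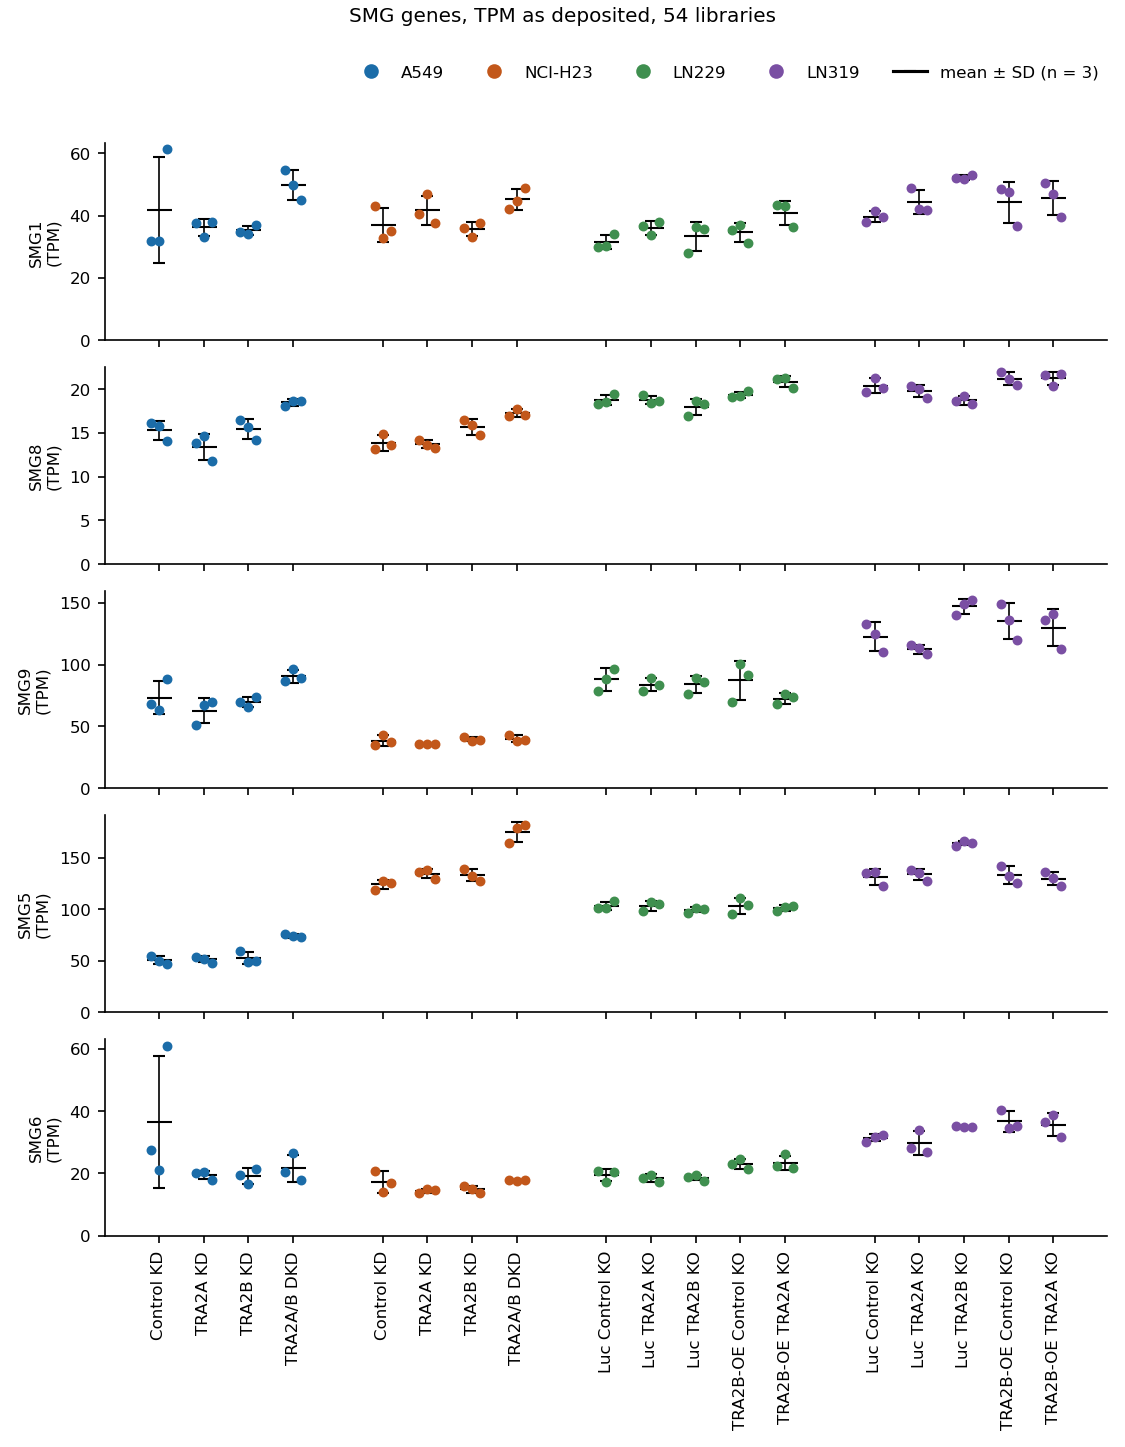
TPM as deposited (y axis, linear from 0) of the 5 SMG genes in all 54 libraries, grouped by condition and coloured by cell line; points are libraries and black marks the mean ± SD of 3. *SMG5* of both double knockdowns (72.5 to 75.8 TPM in A549, 164 to 182 in NCI-H23) lies above the other libraries of its line, and 1 A549 control library lies apart for *SMG1* and *SMG6*.

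The single knockdowns called 0 of 9 decay factors in limma. All genes were called at 0.207% (*TRA2A* KD) and 0.341% (*TRA2B* KD) in A549, and at 0.976% and 0.196% in NCI-H23. At an unadjusted p under 0.05 the counts were 1 and 2 of 9 in A549 and 0 and 0 in NCI-H23, beside 11.3 and 13.5% of all genes in A549 and 13.6 and 10.6% in NCI-H23. *UPF3B* was at 25.4, 22.7 and 21.1 TPM in A549 *TRA2B* KD, above all 3 controls, with a log2 fold change of 0.56 (adjusted p = 0.365), and 0.19 without control replicate 3. *SMG6* differed by -0.60 and -0.69 in the single knockdowns of A549, which share the control libraries, and by -0.25 and -0.34 without that replicate.

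Whether the double knockdown differed from the sum of both single ones was tested as a difference of differences in the same fit. For *UPF3A* in A549 this was -0.57 (95% interval -0.93 to -0.22, adjusted p = 0.0358, limma), the only one of 9 called beside 14.7% of all genes. For *UPF3B* in NCI-H23 it was 0.27 (0.08 to 0.45, adjusted p = 0.0431), again 1 of 9, beside 21.0% of all genes. The other line gave the same sign for each gene but missed the threshold, with -0.22 (-0.45 to 0.0047, adjusted p = 0.154) for *UPF3A* in NCI-H23 and 0.34 (-0.44 to 1.11, adjusted p = 0.561) for *UPF3B* in A549. Without A549 Control KD replicate 3 the last was 0.72 (adjusted p = 0.00576). When each of the 12 libraries of a line was left out in turn, the *UPF3A* call in A549 was lost in 7 cases and the *UPF3B* call in NCI-H23 in 10. The first held without Control KD replicate 2 or 3 or without replicate 3 of any knockdown, and the second without replicate 2 of Control KD or of *TRA2A* KD.

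**Figure D4:**
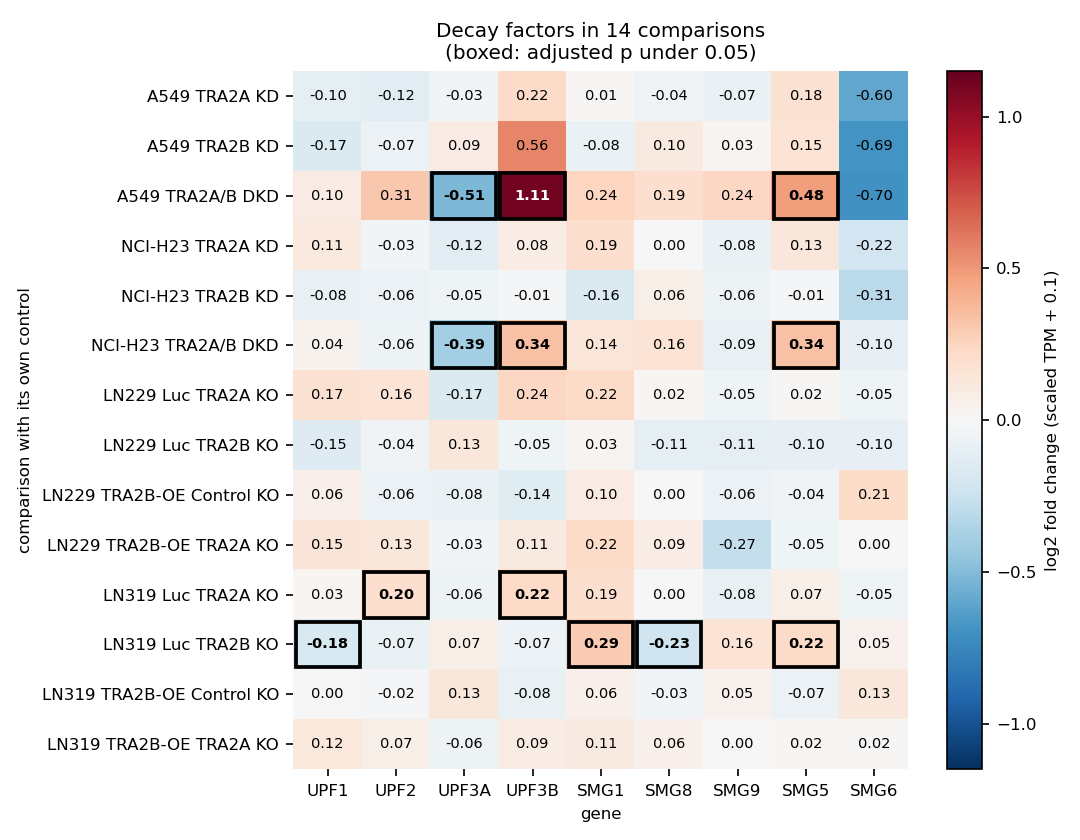
Log2 fold change of scaled TPM + 0.1 (colour and number, blue lower and red higher) of the 9 decay factors (columns) in 14 comparisons with their own control (rows); boxes mark an adjusted p under 0.05. The double knockdowns have boxes for *UPF3A*, *UPF3B* and *SMG5*, single knockdowns and all LN229 comparisons have 0 boxes, and LN319 has 6.

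In LN319, Luc *TRA2A* KO raised *UPF2* and *UPF3B* slightly, 2 of 9 beside 14.3% of all genes called. On TPM as deposited 3 of 9 lay above every control (13.4% of all genes) and 0 below (18.8%). *UPF3B* was at 33.6, 33.9 and 34.7 TPM against 28.8, 29.8 and 31.4 TPM, a log2 fold change of 0.22 (SE 0.0615, adjusted p = 0.0297, limma). *UPF2* was at 25.5, 24.5 and 23.1 TPM against 20.9, 22.5 and 22.1 TPM, a log2 fold change of 0.20 (SE 0.0557, adjusted p = 0.0342). Neither overlapped its control, but leaving out single libraries ended the call in 4 of 6 cases for *UPF3B* and 5 of 6 for *UPF2*. Both calls held without Luc Control KO replicate 3, and that of *UPF3B* also without Luc *TRA2A* KO replicate 1. The ratio of *UPF3A* to *UPF3B* was 2.83 ± 0.128 against 3.44 ± 0.194 without overlap (exact permutation p = 0.1).

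Luc *TRA2B* KO in LN319 called 4 of 9 factors, beside 42.6% of all genes. On TPM as deposited 5 of 9 lay above every control (33.1% of all genes) and 1 below (22.1%). *SMG5* was at 162, 166 and 164 TPM against 135, 136 and 122 TPM, with a log2 fold change of 0.22 (SE 0.0438, adjusted p = 0.00162, limma), and *SMG1* at 52.0, 51.7 and 53.2 TPM against 37.8, 41.4 and 39.7 TPM, with 0.29 (SE 0.0851, adjusted p = 0.0149). Both were above all controls. The partial copy *SMG1P1* was also called higher (0.44, adjusted p = 0.0331, limma), so the *SMG1* value is uncertain here too. *SMG8* was at 18.6, 19.2 and 18.3 TPM against 19.7, 21.3 and 20.1 TPM, a log2 fold change of -0.23 (SE 0.053, adjusted p = 0.00388). *UPF1* was at 77.7, 84.6 and 81.4 TPM against 87.5, 89.2 and 79.5 TPM, a log2 fold change of -0.18 (SE 0.0514, adjusted p = 0.0141), and these deposited levels overlapped. The lower calls depended on scaling. On TPM as deposited *SMG8* was -0.12 (adjusted p = 0.089) and *UPF1* was -0.07 (adjusted p = 0.452), while the median over all genes was 0.12. *SMG9*, at 140, 149 and 152 TPM against 133, 125 and 110 TPM, was not called when scaled (0.16, adjusted p = 0.112) but was on TPM as deposited (0.27, adjusted p = 0.0405). Without Luc Control KO replicate 1 the *SMG1* and *UPF1* calls were lost (adjusted p = 0.0513 and 0.058) and *SMG9* was called (adjusted p = 0.0375), and the *UPF1* call was also lost without Luc *TRA2B* KO replicate 1 or 3.

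As scaled, neither *UPF3A* nor *UPF3B* was called in this knockout. *UPF3A* was at 119, 113 and 118 TPM against 98.2, 109 and 103 TPM and *UPF3B* at 31.5, 30.2 and 30.8 TPM against 28.8, 29.8 and 31.4 TPM. The scaled differences were 0.07 (adjusted p = 0.334) and -0.07 (adjusted p = 0.42). *UPF3A* was called higher with a minimum of 5 TPM (0.15, adjusted p = 0.0388), on TPM as deposited (0.17, adjusted p = 0.0432) and with quantile normalization (0.24, adjusted p = 0.0123). Their ratio was 3.77 ± 0.0524, above all controls (exact permutation p = 0.1).

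In LN229, limma called 0 of 9 in all 4 comparisons, beside 3.68% of all genes for Luc *TRA2A* KO, 0.568% for Luc *TRA2B* KO, 1.03% for TRA2B-OE Control KO and 6.07% for TRA2B-OE *TRA2A* KO. Unadjusted p was under 0.05 for 3, 1, 1 and 2 of the 9, beside 21.6, 23.3, 14.2 and 22.4% of all genes. The lowest adjusted p was that of *UPF3A* after Luc *TRA2A* KO, which was at 53.8, 56.2 and 56.4 TPM against 62.6, 62.4 and 63.9 TPM. The groups did not overlap, with a log2 fold change of -0.17 (adjusted p = 0.0803). *UPF3B* was then at 26.4, 26.5 and 29.9 TPM against 19.7, 26.0 and 25.5 TPM, a difference of 0.24 (adjusted p = 0.188). The ratio of both was 2.01 ± 0.118 against 2.68 ± 0.417 without overlap (exact permutation p = 0.1).

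TRA2B overexpression alone called 0 of 9 factors in LN319 too, beside 4.31% of all genes, and so did *TRA2A* KO on that background, beside 2.77%. Unadjusted p was under 0.05 for 1 of 9 in each, beside 25.0 and 17.95% of all genes. Whether overexpression altered the response to *TRA2A* KO was tested as a difference of differences. It called 0 of 9 in either line, with 0 at an unadjusted p under 0.05 (5.68% of all genes in LN229 and 7.91% in LN319), beside 0.00% of all genes in LN229 and 0.0207% in LN319. The differences lay between -0.22 (*SMG9*, LN229) and 0.13 (*UPF3A*, LN229), and for *UPF3B* they were -0.13 in both lines, with 95% intervals from -0.44 to 0.17 in LN229 and from -0.32 to 0.05 in LN319. In LN319 the ratio of *UPF3A* to *UPF3B* was higher in TRA2B-OE Control KO than in Luc Control KO, at 3.98 ± 0.179 against 3.44 ± 0.194. These did not overlap (log2 difference 0.21, exact permutation p = 0.1). In LN229 they overlapped, at 2.78 ± 0.181 against 2.68 ± 0.417. The ratio in TRA2B-OE *TRA2A* KO overlapped its control, TRA2B-OE Control KO, in both lines. It was 2.54 ± 0.233 against 2.78 ± 0.181 in LN229 and 3.598 ± 0.262 against 3.98 ± 0.179 in LN319.

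Other genes of the pathway were taken from fixed lists, chosen with earlier results of these data known. The 2 largest called changes of each list in a double knockdown are named. Of 15 transcripts known as NMD substrates, 12 rose in A549 and 10 rose and 1 fell in NCI-H23, with list medians of 1.86 and 0.68 (log2). Genes called higher made up 14.3 and 20.0% of all genes. *DDIT3*, a stress transcription factor, rose from 6.68 ± 2.23 to 165 ± 30.9 TPM in A549 (log2 fold change 4.57, adjusted p = 7.9e-06, limma) and from 32.2 ± 11.6 to 287 ± 56.3 TPM in NCI-H23 (3.05, adjusted p = 3.3e-06). *ATF3*, another, rose by 4.51 (adjusted p = 1.7e-07) and 2.12 (adjusted p = 6.3e-07). *DDIT3*, *ATF3*, *ATF4* and *CARS*, all in the list, are also known targets or parts of the integrated stress response, so the list does not measure NMD alone. *RP9P*, named after its value was seen, was the 1 that fell in NCI-H23 (-0.39, adjusted p = 0.0174). Without A549 Control KD replicate 3 the count was 10 higher, with a median of 1.36.

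Of 13 partners of the decay machinery, 0 rose and 4 fell in A549 (7 without control replicate 3). In NCI-H23 0 rose and 6 fell. Genes called lower made up 16.3 and 23.2% of all genes, in the fits with all libraries. Without control replicate 3, calls over all genes in A549 also rose, from 5023 to 6112 in either direction. *ICE1* fell by 1.31 (adjusted p = 0.000259, limma) and 0.88 (adjusted p = 0.000113) on the log2 scale. *RUVBL2*, an ATPase that with RUVBL1 helps assemble SMG1-type kinases, fell by 0.68 (adjusted p = 0.000337) in A549, and in NCI-H23 *MOV10*, an RNA helicase, fell by 0.84 (adjusted p = 0.000464). Of 8 genes for SMG1-related kinases and their maturation, 0 rose and 2 fell in A549 (*PRKDC*, -0.97, adjusted p = 0.00524, and *TELO2*, -0.69, adjusted p = 0.0027) and 3 fell in NCI-H23, led by *TELO2* (-0.84, adjusted p = 1.4e-05) and *ATR* (-0.47, adjusted p = 0.0288). TELO2 is a co-chaperone for kinases of this family. Partners were also called in single knockdowns. After *TRA2A* KD 0 rose and 1 fell in each line, beside 0.207% of all genes called in A549 and 0.976% in NCI-H23. The lowest log2 fold change of the partners was then -2.18 in A549 and -1.06 in NCI-H23. After *TRA2B* KD 0 partners were called in either line. Of the exon junction genes described next, 1 was called higher after *TRA2A* KD in NCI-H23.

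For the next lists, the shares of all genes called higher were 14.3% in A549 and 20.0% in NCI-H23. The shares called lower were 16.3 and 23.2%. The counts of these small lists were not tested against those shares. Of 7 exon junction complex genes, 2 rose and 1 fell in each line (2 and 2 in A549 without control replicate 3). The paralog *MAGOHB* rose by 0.78 in A549 (adjusted p = 0.0279, limma) and 0.59 in NCI-H23 (adjusted p = 0.000412), and *RNPS1*, a splicing activator that also joins the complex, fell by 0.50 (adjusted p = 0.000362) and 0.29 (adjusted p = 0.00195). Of 5 termination genes, 1 rose and 3 fell in A549 (1 and 2 without that replicate) and 2 rose and 2 fell in NCI-H23. *GSPT1* and *GSPT2*, which encode alternative forms of release factor eRF3, moved in opposite directions in A549, by -0.80 (adjusted p = 0.000451) and 1.02 (adjusted p = 0.00625). In NCI-H23 the largest were *PABPC4*, a poly(A)-binding protein (-0.68, adjusted p = 2.7e-06), and *GSPT2* (0.46, adjusted p = 0.00532). Of 16 decay enzymes, 1 rose and 2 fell in A549 (3 rose and 2 fell without control replicate 3), and 4 rose and 3 fell in NCI-H23. *DCP1B*, a decapping cofactor, rose by 1.20 in A549 (adjusted p = 0.00185), where *EXOSC10*, a nuclear exosome nuclease, fell by 0.58 (adjusted p = 0.00323). In NCI-H23 *DCP2*, the decapping enzyme, rose by 0.58 (adjusted p = 0.0492), and *CNOT7*, a deadenylase, fell by 0.53 (adjusted p = 0.00378).

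The same lists differed between the knockouts of LN319. After Luc *TRA2A* KO 9 of 15 NMD substrates rose and 0 fell (median 0.24, beside 6.82% of all genes called higher and 7.44% lower), and 0 of 7 exon junction genes were called. After Luc *TRA2B* KO 2 substrates rose and 4 fell (median -0.16, beside 18.6% called higher and 24.0% lower), 0 exon junction genes rose and 6 fell (median -0.45), and 4 partners rose and 7 fell. The Luc comparisons share their control libraries, and the difference between them was not tested. After TRA2B-OE *TRA2A* KO in LN319, 7 of 15 substrates also rose and 0 fell (median 0.29), beside 2.77% of all genes called. In LN229 3 substrates rose after Luc *TRA2A* KO and 2 after TRA2B-OE *TRA2A* KO. There 0 fell in either, beside 3.68 and 6.07% of all genes called. After Luc *TRA2B* KO in LN229 0 substrates rose and 2 fell (median -0.32), beside 0.568% of all genes called.

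**Figure D5:**
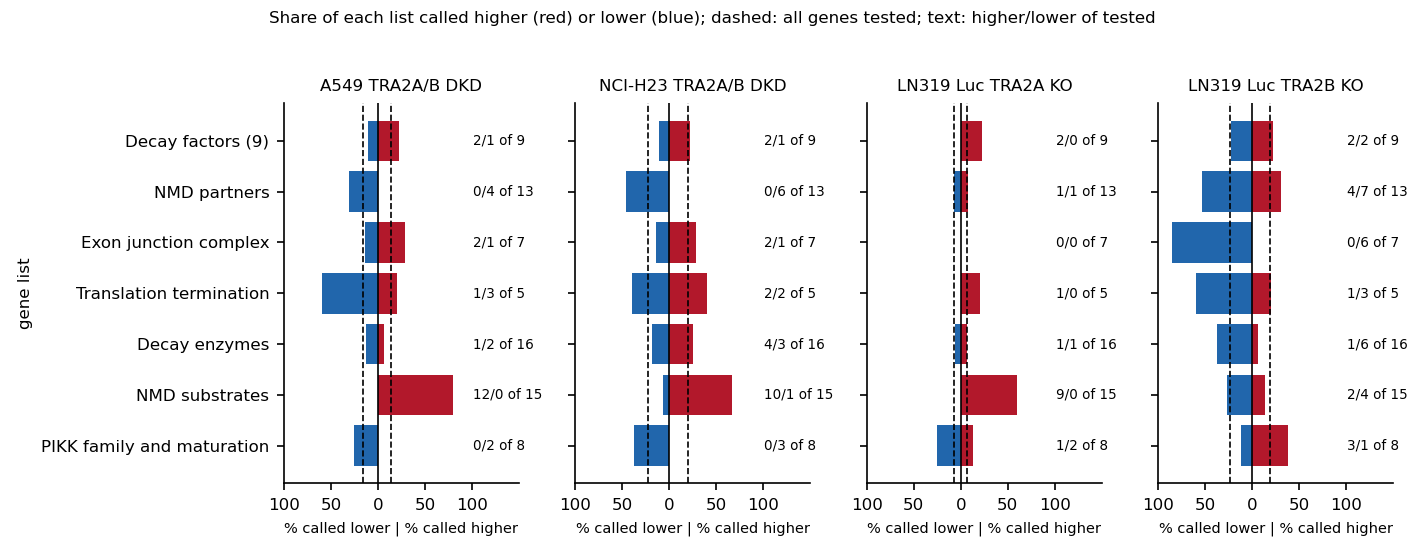
Percent of each list called higher (red, right of 0) or lower (blue, left of 0) at an adjusted p under 0.05 in 4 comparisons; dashed lines are the percent of all genes called in each direction and the text gives higher/lower of the genes tested. The 9 decay factors have 2 called higher in each comparison and 1, 1, 0 and 2 lower, and NMD substrates reach 12 of 15 higher in A549, 10 of 15 in NCI-H23 and 9 of 15 in LN319 Luc *TRA2A* KO.

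For each member the gene of most similar pattern over the 54 libraries was sought among 12067 genes tested in all lines, by Pearson r of log2 values centred within each line. The pairs were *UPF1* with *RAP2B* (0.825), *UPF2* with *IARS* (0.822), *UPF3A* with *SLC27A3* (0.840), *UPF3B* with *KCTD11* (0.889), *SMG1* with *STK4* (0.822), *SMG5* with *FDXR* (0.805), *SMG6* with *ZZEF1* (0.838), *SMG8* with *FDX2* (0.798) and *SMG9* with *MSANTD2* (0.619). The libraries share conditions and scaling, so r is a description only. None of the 9 had another decay factor as its closest gene, and *SMG9* had the lowest value.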

How the data were processed

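Polyadenylated RNA of 4 cell lines was sequenced as directional libraries. The authors quantified transcripts with kallisto 0.48.0 on Gencode v34 (GRCh38) and deposited gene-level TPM, with no scaling between libraries and no log. TPM keep no read counts, so no counting interval can be given, and precision rests on the spread of 3 libraries. The depth is unknown from the values. Whether kallisto used the strand is not given in the sources used here. The submitters' processing notes also name STAR 2.7.3.

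Each line was fitted separately in R 4.3.3 with limma 3.58.1. Only genes reaching 1 TPM in 4 or more libraries were kept. Libraries were scaled by a trimmed mean of their log ratios without weights (30% of ratios and 5% of abundances trimmed), and values were taken as log2(TPM + 0.1), so fold changes of low genes are understated. All libraries of a line shared 1 model, whose variances followed a trend with abundance. P-values are two-sided, with Benjamini-Hochberg adjustment over all genes of a comparison, and a call needed an adjusted p under 0.05. The study used limma-voom on counts, which TPM do not allow. Lines were normalized separately and are set side by side without a test. The members, gene lists and named genes (all 9 members, both targets, and of each list the 2 largest called changes in the double knockdowns) were chosen with earlier results of these data known. 31-base words, exons and motifs were taken from Gencode v44 with Python 3.11.15. The method was tested on simulated data. Alternatives were pseudocounts of 0.5 and 1, no filter or 5 TPM, TPM as deposited, quantile normalization, only the groups compared, the replicate number as a block, removal of length and GC trends, a minimum fold change and each library left out. List counts without A549 Control KD replicate 3 were added after seeing the data. Transcript-level and splicing results were not analysed here. Figures used matplotlib 3.10.9.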

Additional observations from a re-analysis of the deposited data

Results flagged for a closer look

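Both results below were singled out because the effect of the double knockdown differed from the sum of the single ones by a test of that difference (limma). For *UPF3A* in A549 it was -0.57 on the log2 scale, and for *UPF3B* in NCI-H23 it was 0.27. Groups of 3 libraries are too small to test for single outlying values.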

How the results depend on the processing

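With TPM and 3 libraries a group, small differences are the limit of these data. Of the 9 decay factors, *UPF3A* in A549, *UPF3B* and *SMG5* in NCI-H23 after double knockdown and *SMG5* in LN319 Luc *TRA2B* KO were called under all alternatives run other than the minimum fold change. In A549, *UPF3B* and *SMG5* missed the threshold under 1 other alternative, a fit of the compared groups alone (adjusted p = 0.0526 and 0.0714, limma), which left 1 call. No called value changed sign. Removal of the length and GC trend gave 7 calls in the A549 double knockdown and 2 in the non-additivity of A549 and of NCI-H23. Over all genes the alternatives other than left-out libraries called 2922 to 5224 in the A549 double knockdown, against 5023. With the trend removed, the non-additivity called 2634 against 2417 genes in A549 and 3567 against 3429 in NCI-H23. Those fits held only the 82.4 and 82.3% of genes with a length. The 7 of 9, here and with the replicate block added, were not tested against the share of all genes called. Trend removal was not run in LN229 and LN319, where 78.4 and 78.2% of genes had a length, so that check is void there. The numbers of decay factors called in the non-additivity contrasts were 0 with no filter in both lines, 0 with quantile normalization in A549, and 2 in NCI-H23 with quantile normalization, TPM as deposited or a minimum of 5 TPM. In LN319 Luc *TRA2A* KO they were 0 with no filter or only the groups compared and 1 with TPM as deposited. A minimum of 5 TPM gave 1 in LN229 Luc *TRA2A* KO (*UPF3A*). Requiring an absolute log2 fold change above 1 left 1 in the A549 double knockdown and 0 in all other comparisons. Leaving out 1 library at a time gave 3 to 5 calls in A549 *TRA2A/B* DKD (5 without Control KD replicate 3), 0 to 2 in each non-additivity contrast, 0 to 2 in LN319 Luc *TRA2A* KO and 0 to 1 in LN229 TRA2B-OE *TRA2A* KO (1 without TRA2B-OE Control KO replicate 1). The causes of these changes were not tested.

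The labels share replicate numbers 1 to 3, but same-numbered libraries deviated together with correlations between -0.154 and 0.212. In no comparison were all 3 above 0.1, and the main fit did not pair libraries by number. The highest, 0.212 and 0.160, were both for replicate 1 in LN229, where the block also called more genes, as given below. Whether libraries of the same number share variation there was not tested. With the replicate block, 1 decay factor (*SMG9*) was called in LN229 TRA2B-OE *TRA2A* KO and 0 in the non-additivity of NCI-H23, and with the block and the trend removed 7 in A549 *TRA2A/B* DKD and 2 in the non-additivity of A549. Over all genes the block called 1297 against 105 in LN229 Luc *TRA2B* KO, 1585 against 681 in LN229 Luc *TRA2A* KO, 329 against 190 in LN229 TRA2B-OE Control KO, 1890 against 1122 in LN229 TRA2B-OE *TRA2A* KO and 1923 against 832 in LN319 TRA2B-OE Control KO. A fit of the compared groups alone called 2922 against 5023 genes in A549 *TRA2A/B* DKD, 1632 against 2752 in LN319 Luc *TRA2A* KO and 192 against 1122 in LN229 TRA2B-OE *TRA2A* KO. In the same fit A549 *TRA2A* KD had 1 against 34, *TRA2B* KD 6 against 56, NCI-H23 *TRA2A* KD 4 against 159 and *TRA2B* KD 13 against 32. LN229 had 1 against 681 (Luc *TRA2A* KO), 0 against 105 (Luc *TRA2B* KO) and 2 against 190 (TRA2B-OE Control KO), and LN319 had 41 against 832 (TRA2B-OE Control KO) and 2 against 534 (TRA2B-OE *TRA2A* KO). Removal of the trend gave 56 against 34 in A549 *TRA2A* KD, and no filter 17 against 4 in the overexpression difference of LN319. Single libraries also moved counts, most in LN229 Luc *TRA2B* KO (3 without Luc Control KO replicate 2, 3822 without replicate 1).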
